A study of Mus musculus with 6 samples.

Results

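The genes described here belong to the transient outward potassium current of the heart and to the Iroquois family. Kcnd2, Kcnd3, Kcnip2 and Dpp6 encode channel subunits, and Irx3, Irx4 and Irx5 encode Iroquois homeodomain factors. They were taken as every probe set of the array whose platform annotation gives only the symbol of 1 of these 7 genes or a synonym of it, which selected 16 of 45101 probe sets, 13 for the channel subunits and 3 for the Iroquois factors. They are 7 of the 18193 genes that a probe set names in this way. The genes were chosen by their log2 differences between the genotypes on these same 6 arrays, so their differences are given as a description, with no test. RNA was measured on Affymetrix arrays, with 1 array per mouse, in hearts of 3 DNMTs-Tg mice (replicates 1, 5 and 6) and 3 wild-type mice (replicates 1, 4 and 6), all 8 weeks old. DNMTs-Tg mice came from a cross of FVB-Tg(Ddx4-cre)1Dcas/J females, whose Cre is driven by the germ cell gene Ddx4, with males of a floxed line, and express DNMT3A2 and DNMT3L, an enzyme of de novo DNA methylation and its catalytically inactive partner, in a broad range of somatic cells. The strain of the floxed line, and whether the wild-type mice carried Cre or came from the same litters, is not given in the sources used here. DNA methylation was not analysed here.

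The transient outward current is the fast potassium current that starts repolarization of the heart muscle cell, and in mice it carries much of it. Kcnd2 and Kcnd3 encode its pore-forming subunits, Kcnip2 a calcium-binding subunit that the channel needs to reach and stay at the cell surface, and Dpp6 a membrane glycoprotein that speeds its gating in neurons and is also found with cardiac channels. The current is larger at the outer than at the inner face of the ventricular wall. Irx5 is known as a repressor of Kcnd2 that is strongest at the inner face, Irx3 acts in the ventricular conduction system, where it affects connexin genes including Gja5, and Irx4 is restricted to the ventricles.

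The windows of 250 bases before the annotated start of the gene are shown for Kcnd2, Kcnd3 and Irx3, because the study asked which genes are silenced by added DNA methyltransferases and CpG is the dinucleotide these enzymes methylate. They were read from RefSeq (GRCm38.p6), 5′ to 3′ in the direction of the gene, with each CpG in capitals. Kcnd2 and Kcnd3 are paralogues, and Irx3 is the Iroquois gene with such a window here.
Kcnd2, chr6:21215096-21215345, plus strand: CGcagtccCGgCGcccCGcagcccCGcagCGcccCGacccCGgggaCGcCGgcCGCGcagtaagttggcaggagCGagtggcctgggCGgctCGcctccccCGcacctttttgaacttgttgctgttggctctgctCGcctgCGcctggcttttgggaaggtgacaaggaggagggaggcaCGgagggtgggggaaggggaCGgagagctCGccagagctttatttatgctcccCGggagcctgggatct
Kcnd3, chr3:105451640-105451889, plus strand: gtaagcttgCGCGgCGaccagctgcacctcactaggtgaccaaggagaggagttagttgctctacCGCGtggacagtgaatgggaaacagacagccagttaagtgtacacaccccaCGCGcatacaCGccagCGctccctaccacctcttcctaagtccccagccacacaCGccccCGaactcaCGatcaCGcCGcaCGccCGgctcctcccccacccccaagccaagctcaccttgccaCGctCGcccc
Irx3, chr8:91801655-91801904, minus strand: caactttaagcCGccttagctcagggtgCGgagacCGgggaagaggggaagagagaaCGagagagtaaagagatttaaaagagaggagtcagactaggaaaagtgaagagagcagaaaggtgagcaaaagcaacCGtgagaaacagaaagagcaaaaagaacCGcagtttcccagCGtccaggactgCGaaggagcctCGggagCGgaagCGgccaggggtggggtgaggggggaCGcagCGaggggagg
Kcnd2 and Irx4 each held 22 CpGs, more than 85.2% of the 32851 windows in the table. Kcnd3 held 18, Kcnip2 15 and Irx3 13, and the 3 windows of Dpp6 held 6 to 10. The median window held 6. The windows of Irx4 and Kcnip2, and those of Dpp6 other than the outermost, precede the start of a transcript but lie inside the outer span of the gene. The Iroquois motif ACANNTGT and the shorter ACATGT, both searched on both strands and counted separately, were in none of these windows, and in 6.31% and 4.58% of all windows. Irx5 had no window in the table.

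Median log2 signals were between 5.28 and 5.33 on the 6 arrays. The heart label matched its markers, since all 10 cardiomyocyte markers passed the filter on low values described next, and their mean log2 signal was 13.78 to 14.02 on the DNMTs-Tg arrays and 13.99 to 14.03 on the wild-type arrays. The atrial light chain gene Myl7 was just above the 40th percentile on every array (log2 signal 4.81 to 5.11). By the RNA of the Y-linked gene Eif2s3y and of Xist, 5 arrays were of male type and that of wild-type replicate 4 was of female type, whereas the labels call only wild-type replicate 6 male. Without wild-type replicate 4, which leaves arrays of male type, the difference was -2.20 for Kcnd2, -1.54 for Irx5, -0.85 for Irx3, -0.45 for Kcnip2, 0.51 for Irx4, 0.22 for Kcnd3 and 0.07 for Dpp6 (log2, DNMTs-Tg minus wild-type).

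The filter on low values kept a probe set that exceeded its array's 40th percentile on 3 or more arrays, and 12 of the 16 were kept, with at least 1 for each of the 7 genes. In the limma fit over all 13634 genes, which takes the brightest passing probe set of each gene, 5.39% of genes passed an adjusted p of 0.05, 3.15% lower and 2.24% higher in DNMTs-Tg hearts. Of the 7 genes 2 passed, Kcnd2 and Irx5, both lower, and nothing is read from this count, since the contrast chose the genes. The median difference of the 7 was -0.46, against 0.0055 for all genes. Over every probe set without the filter, 2.11% of 45037 passed, 1.31% lower and 0.799% higher, and of the 16 these were 3 of Kcnd2, 1 of Kcnip2 and that of Irx5, all lower. The groups did not overlap for 4 of the 7 genes with DNMTs-Tg lower and for 1 with DNMTs-Tg higher, where 34.9% of all genes had no overlap, 17.6% lower and 17.3% higher. By probe set, 8 of the 16 did not overlap with DNMTs-Tg lower and 1 with DNMTs-Tg higher, where 26.5% of every probe set had no overlap, 14.9% lower and 11.7% higher.

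**Figure D1:**
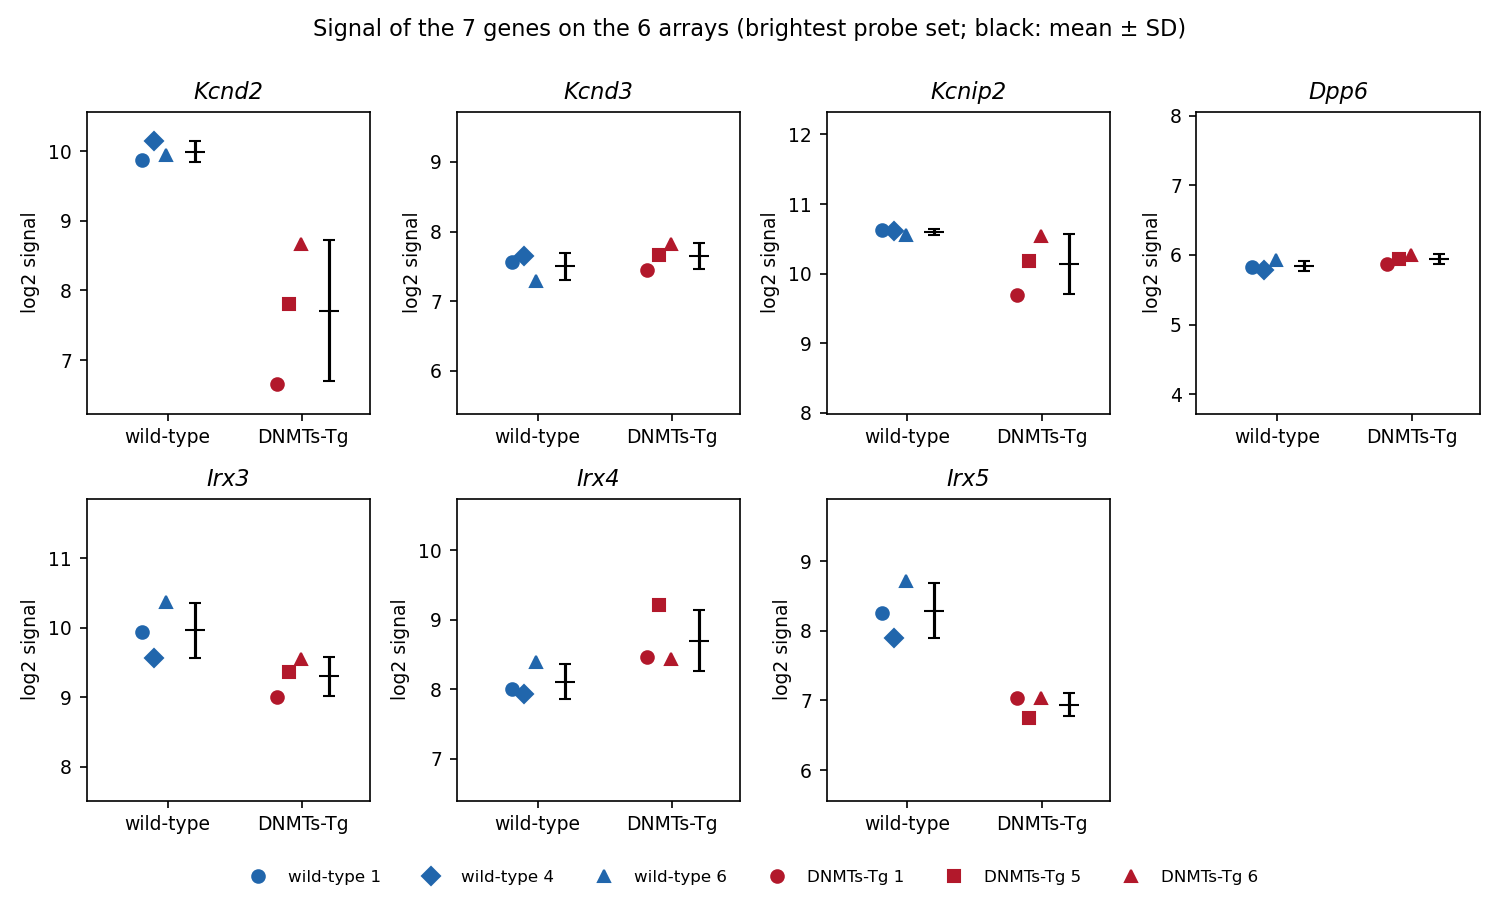
Log2 signal of the brightest probe set of each of the 7 genes on the 3 wild-type (blue) and 3 DNMTs-Tg (red) arrays, with the mean and SD in black; every panel spans the same number of log2 units. Kcnd2 and Irx5 show the widest gaps between the groups, 1.21 and 0.86, while Kcnd3 and Dpp6 overlap.

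Kcnd2, on chromosome 6 (21215346 to 21729805, GRCm38.p6), differed most. Its brightest probe set had log2 signals of 6.65, 7.80 and 8.66 in DNMTs-Tg replicates 1, 5 and 6, and of 9.87, 10.15 and 9.94 in wild-type replicates 1, 4 and 6. Every DNMTs-Tg heart lay below every wild-type heart, and the DNMTs-Tg values spread over 2.01, against 0.29 for wild-type. The means were 7.71 ± 1.01 (SD, n = 3) and 9.99 ± 0.15 (SD, n = 3), a difference of -2.28 ± 0.42 (log2, SE), or 4.86-fold lower. In percent of the wild-type mean, DNMTs-Tg replicates 1, 5 and 6 stood at 9.93, 22.0 and 39.9. In whole hearts, fewer cells that express a gene and less RNA per cell cannot be told apart.

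The other bright probe sets of Kcnd2 gave the same picture. Probe set 1422834_at had 5.34, 6.53 and 7.30 in DNMTs-Tg replicates 1, 5 and 6 and 8.72, 9.17 and 8.66 in wild-type replicates 1, 4 and 6, a difference of -2.46 ± 0.43 (SE). Probe set 1450773_at had 5.71, 7.14 and 7.50 against 8.88, 9.14 and 8.72, a difference of -2.13 ± 0.41 (SE). The order of the DNMTs-Tg mice, with replicate 1 lowest and replicate 6 highest, was the same in all 3. The fourth, 1447764_at, was below the 40th percentile on every array, with values of 2.95 to 3.25 that overlapped (difference 0.04 ± 0.12, SE). With any 1 array left out, the difference of the brightest ranged from -2.76 to -1.75, the smallest without DNMTs-Tg replicate 1. Kcnd2 was no longer past the limma threshold without DNMTs-Tg replicate 5 or without any 1 of the wild-type replicates.

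Kcnd3, on chromosome 3 (105451890 to 105674002), encodes the other pore-forming subunit, and its groups overlapped on all 4 probe sets. Its brightest probe set had 7.45, 7.67 and 7.82 in DNMTs-Tg replicates 1, 5 and 6 and 7.56, 7.65 and 7.29 in wild-type replicates 1, 4 and 6. The means were 7.65 ± 0.19 and 7.50 ± 0.19 (SD, n = 3 each), a difference of 0.14 ± 0.15 (SE). The other passing probe set, 1442555_at, also overlapped (5.13 to 5.41 against 5.29 to 5.44, difference -0.08 ± 0.13). The remaining 2 did not pass the filter, and their differences were -0.25 and -0.03. Whether the genotype difference itself differs between Kcnd2 and Kcnd3 was not tested.

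Kcnip2, on chromosome 19 (45792346 to 45816422), was measured by 3 probe sets that disagreed. The brightest had 9.69, 10.18 and 10.54 in DNMTs-Tg replicates 1, 5 and 6 and 10.63, 10.61 and 10.55 in wild-type replicates 1, 4 and 6. The wild-type hearts were within 0.08 of each other, and DNMTs-Tg replicate 6 lay only 0.01 below the lowest of them. The means were 10.14 ± 0.43 and 10.60 ± 0.04 (SD, n = 3 each), a difference of -0.46 ± 0.20 (SE), and -0.24 without DNMTs-Tg replicate 1. The dimmer probe set 1425870_a_at separated the groups more clearly, with 5.92, 6.27 and 6.23 against 6.93, 6.87 and 6.76, a difference of -0.72 ± 0.14 (SE) or 1.65-fold lower. The third, 1421783_a_at, went the other way (0.21 ± 0.16, SE) with overlapping groups and lay above the 40th percentile on 3 of the 6 arrays. Which Kcnip2 transcripts each of them detects is not known here.

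Dpp6, on chromosome 5 (26817357 to 27727500), had 1 passing probe set, with 5.87, 5.94 and 6.00 in DNMTs-Tg replicates 1, 5 and 6 and 5.83, 5.78 and 5.92 in wild-type replicates 1, 4 and 6. The groups overlapped (difference 0.10 ± 0.12, SE). The other, 1439748_at, was below the 40th percentile on all 6 arrays, at 3.09 to 3.42 in DNMTs-Tg and 3.52 to 3.73 in wild-type hearts, so that its separation was among values too dim to read as a level.

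**Figure D2:**
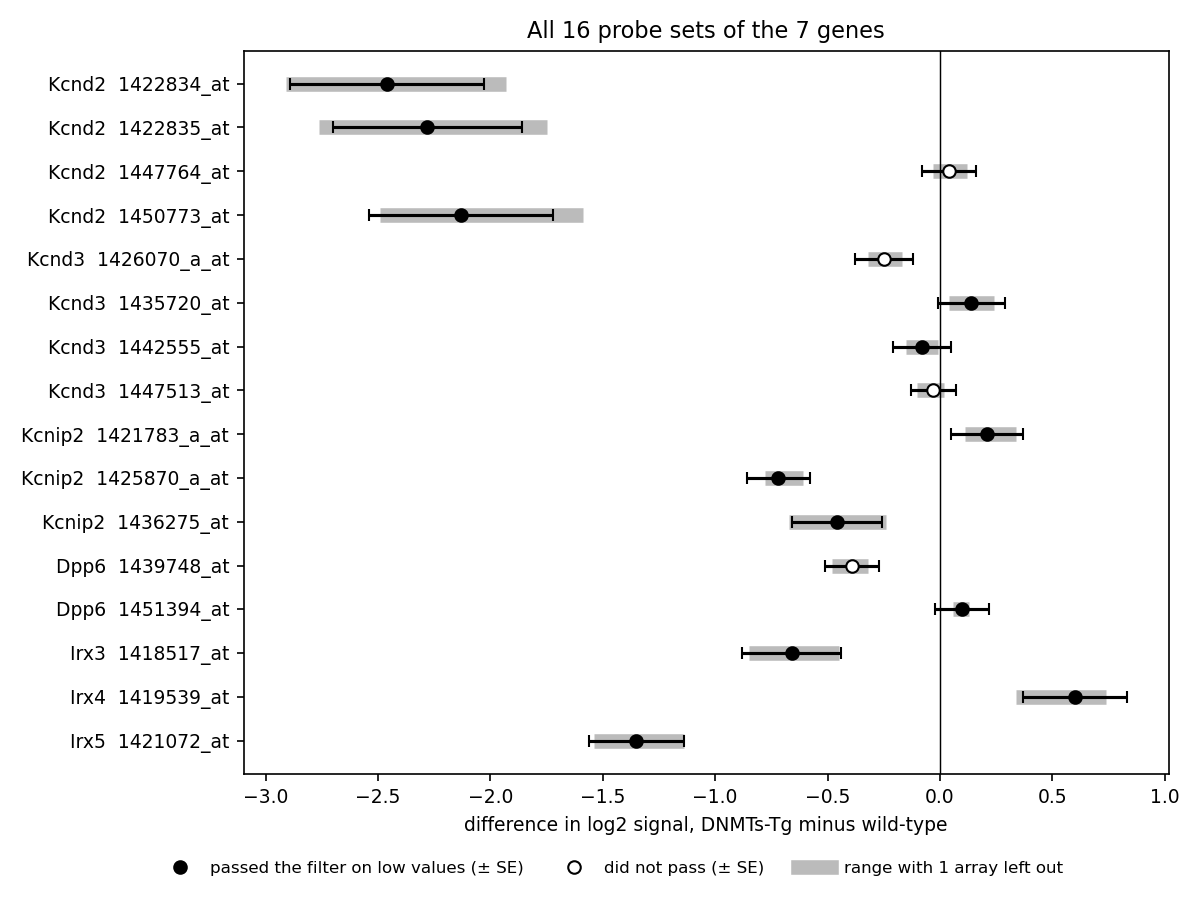
Difference in log2 signal between DNMTs-Tg and wild-type hearts for all 16 probe sets, with the SE as a bar and the range with any 1 array left out in grey; open circles did not pass the filter on low values. The 3 bright Kcnd2 probe sets lie between -2.46 and -2.13, the Kcnd3 probe sets between -0.25 and 0.14, and the Kcnip2 probe sets on both sides of 0.

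Among the Iroquois factors Irx5 stood out. Its single probe set had 7.03, 6.75 and 7.04 in DNMTs-Tg replicates 1, 5 and 6 and 8.26, 7.90 and 8.71 in wild-type replicates 1, 4 and 6. The groups were 0.86 apart, and the DNMTs-Tg hearts were within 0.29 of each other, unlike for Kcnd2. The means were 6.94 ± 0.16 and 8.29 ± 0.40 (SD, n = 3 each), a difference of -1.35 ± 0.21 (SE) or 2.55-fold lower. The difference lay between -1.54 and -1.14 with any 1 array left out, and Irx5 was no longer past the limma threshold without DNMTs-Tg replicate 5 or without wild-type replicate 1.

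Irx3 had 9.0, 9.36 and 9.55 in DNMTs-Tg replicates 1, 5 and 6 and 9.94, 9.57 and 10.37 in wild-type replicates 1, 4 and 6. The highest DNMTs-Tg heart lay 0.02 below the lowest wild-type heart, so the groups only just separated. The difference was -0.66 ± 0.22 (SE), from 9.96 ± 0.40 to 9.30 ± 0.28 (SD, n = 3 each). Irx4 had 8.47, 9.21 and 8.44 against 8.00, 7.93 and 8.39, and here the DNMTs-Tg hearts were the higher. The gap was again small, 0.04, and DNMTs-Tg replicate 5 alone was far above wild-type. The difference was 0.60 ± 0.23 (SE), and 0.34 without that replicate.

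Iroquois genes lie in 2 clusters of 3. Irx3, Irx5 and Irx6 are on chromosome 8, with Irx3 at 91798511 to 91801654 and Irx5 at 92357796 to 92361456, and Irx1, Irx2 and Irx4 are on chromosome 13, with Irx4 at 73259589 to 73269622. Of the other 3 genes, Irx2 fell, with 5.96, 6.30 and 6.45 in DNMTs-Tg replicates 1, 5 and 6 and 7.45, 7.41 and 7.09 in wild-type replicates 1, 4 and 6 (difference -1.08 ± 0.17, SE, limma adjusted p = 0.0182). The adjusted p of Irx2 ranged from 0.0135 to 0.0937 with 1 array left out, and it passed in 3 of those 6 fits, not without DNMTs-Tg replicate 5 or wild-type replicate 1 or 4. Irx1 had overlapping groups and a difference of 0.26 (adjusted p = 0.524), and Irx6 was below the 40th percentile on every array. Within the chromosome 13 cluster Irx2 was thus lower and Irx4 was not.

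**Figure D3:**
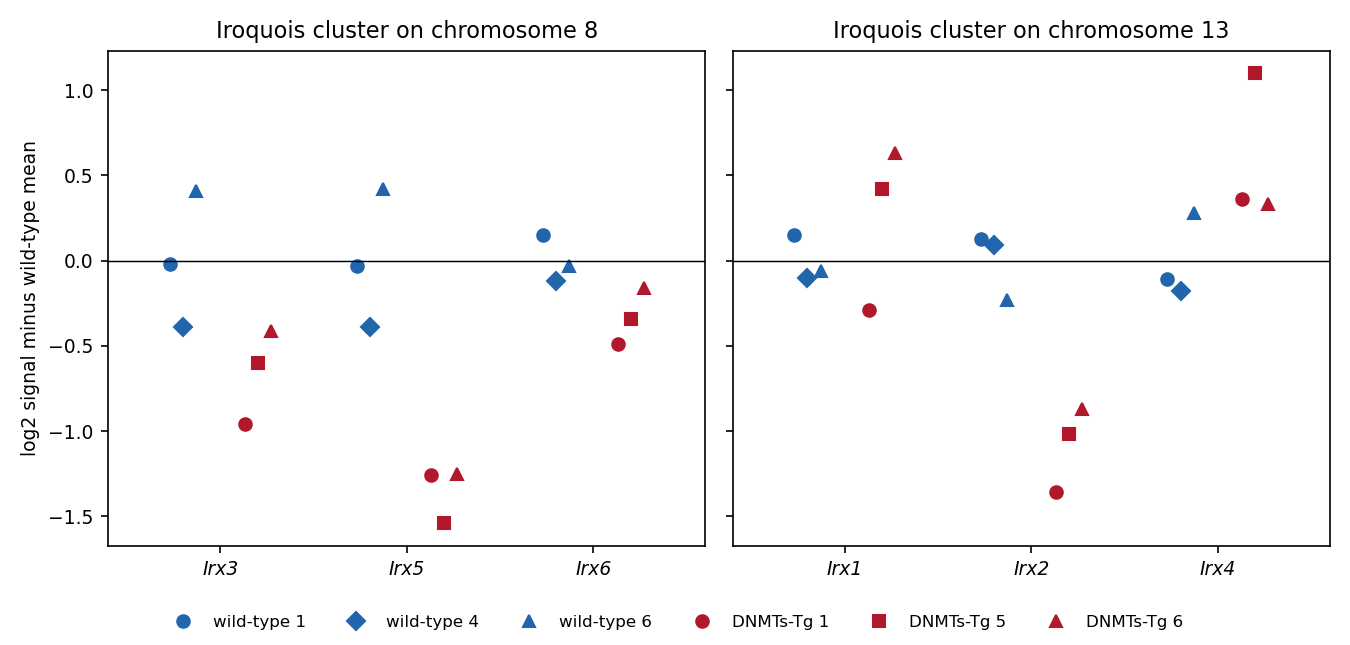
Log2 signal minus the wild-type mean for the 6 Iroquois genes, by chromosome cluster, on wild-type (blue) and DNMTs-Tg (red) arrays. Irx5 on chromosome 8 and Irx2 on chromosome 13 show the widest separation, Irx4 lies above 0 in every DNMTs-Tg heart, and Irx6 is below the 40th percentile of every array.

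The genes next to Irx3, Irx5 and Irx4 were taken as the 5 tested genes before and the 5 after each in annotation order. By start coordinates they lay from 31.8 kb (Crnde from Irx5) to 3460 kb (Med10 from Irx4) away, so not all were close. Apart from the members these were 21 genes, with a median difference of 0.00. The threshold was passed by 1, which was Irx2, where 5.39% of all genes passed it. An unadjusted limma p under 0.05 was reached by 4 of the 21, where 26.0% of all genes reached it. Whether the neighbours differ from the members was not tested. Fto, an RNA demethylase gene whose introns are known to hold enhancers acting on Irx3, differed by -0.08 (adjusted p = 0.695). Crnde, 31.8 kb from Irx5 by their start coordinates, differed by 0.29 (adjusted p = 0.284). Ces1d, a carboxylesterase gene, had the lowest value of the 21, -1.95 (adjusted p = 0.258), with overlapping groups. On chromosome 13, Lpcat1 differed by -0.41 (adjusted p = 0.142) and Clptm1l by 0.30 (adjusted p = 0.174). The remaining neighbours, Gm19935, Chd9, Rbl2, Aktip, Mmp2, Lpcat2, Slc6a2, Ces5a, Med10, Ice1, Adamts16, Mrpl36, Eprn and Slc6a3, lay between -0.51 for Eprn and 0.55 for Mmp2, with none past the threshold.

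The other genes of the current, of cardiac excitability and of Iroquois function were taken from 6 lists with 59 genes tested. Of these, 5 passed the threshold, 2 higher and 3 lower, or 8.47%, against 5.39% of all genes. An unadjusted p under 0.05 was reached by 19 of the 59, where 26.0% of all genes reached it, among them 7 of the 15 regulators, 6 of the 17 other potassium channel genes and 3 of the 9 other subunits described next. Among 9 tested subunits that can join transient outward channels, Kcne1 passed the threshold higher and none passed it lower. By direction alone, 4 of the 9 were above 0 and 5 below. Kcne1, a small membrane subunit best known as the partner of Kcnq1, had 9.05, 8.48 and 8.95 in DNMTs-Tg replicates 1, 5 and 6 and 6.01, 7.0 and 7.55 in wild-type replicates 1, 4 and 6. No DNMTs-Tg heart overlapped with wild-type, and the difference was 1.97 ± 0.37 (SE, adjusted p = 0.0315). A second probe set of Kcne1 moved the same way, by 1.36 ± 0.26 (SE, adjusted p = 0.0438 in the limma fit over every probe set). The adjusted p was 0.0361 to 0.104 with 1 array left out, and Kcne1 passed in 3 of 6 such fits, not without DNMTs-Tg replicate 5 or wild-type replicate 1 or 4. For background on the same current, and outside the rule for naming genes, Kcna4, the pore subunit of the slow transient outward current, differed by -0.05 (adjusted p = 0.863), and Kcnd1, the remaining gene of the Kcnd family, by 0.30 (adjusted p = 0.324).

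Of 17 other cardiac potassium channel genes, 1 passed: Kcnn1, a calcium-activated channel gene, fell by 0.65 on the log2 scale (adjusted p = 0.0441), but passed in 0 of the 6 fits with 1 array left out. Its other passing probe set differed by -0.39 (adjusted p = 0.27 in the limma fit over every probe set), and the mean of its probe sets by -0.52 (adjusted p = 0.0662). The graded pattern of Kcnd2 was also seen in Kcnj3, which encodes a muscarinic potassium channel subunit and is named after its values were seen. On the brightest of its 3 passing probe sets, Kcnj3 had 5.41, 7.42 and 8.66 in DNMTs-Tg replicates 1, 5 and 6. Wild-type hearts had 8.99 to 9.31, a difference of -1.99 ± 0.72 (SE, limma adjusted p = 0.143). Kcnn2, also named after its values were seen, had the same order, with 4.67, 6.07 and 6.32 against 6.67 to 7.08 (limma adjusted p = 0.13). Of the 17 genes, 11 were below 0 and 6 above. Of 12 sodium, calcium and pacemaker channel genes 0 passed by limma, with 1 at an unadjusted p under 0.05. That was Fgf13, which encodes a sodium channel partner, at -0.45 (adjusted p = 0.124). Cacna1h, a T-type calcium channel gene, differed by 0.31 (adjusted p = 0.205).

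Of 15 transcription factors and cofactors that act on these channel genes or with Iroquois factors, 1 passed the threshold lower and 1 higher. By direction alone, 12 of the 15 were below 0 and 3 above. The median difference was -0.30, against 0.0055 for all genes. Nkx2-5, a cardiac homeodomain factor, fell by 0.59 (adjusted p = 0.0471), but its adjusted p was 0.0522 to 0.164 with 1 array left out, past the threshold in 0 of 6 fits. Smyd1, a muscle methyltransferase known to act with Irx5 on Kcnd2, rose by 0.47 (adjusted p = 0.0493, past the threshold in 1 of 6 fits with 1 array left out) on its brightest probe set, while the other 4 that passed the filter differed by -0.31 to 0.17. Klf15, a known activator of Kcnip2 that is named after its values were seen, had 7.90, 8.19 and 9.11 in DNMTs-Tg and 9.57, 9.66 and 8.43 in wild-type hearts, and overlapped (adjusted p = 0.251). Among 5 tested genes listed as possible downstream genes of Iroquois factors 0 passed by limma and 1 had an unadjusted p under 0.05. These included Acta1, the skeletal actin gene, at 2.19 ± 0.58 (SE, adjusted p = 0.0752) and the chemokine gene Cxcl12 at -0.49 (adjusted p = 0.276).

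**Figure D4:**
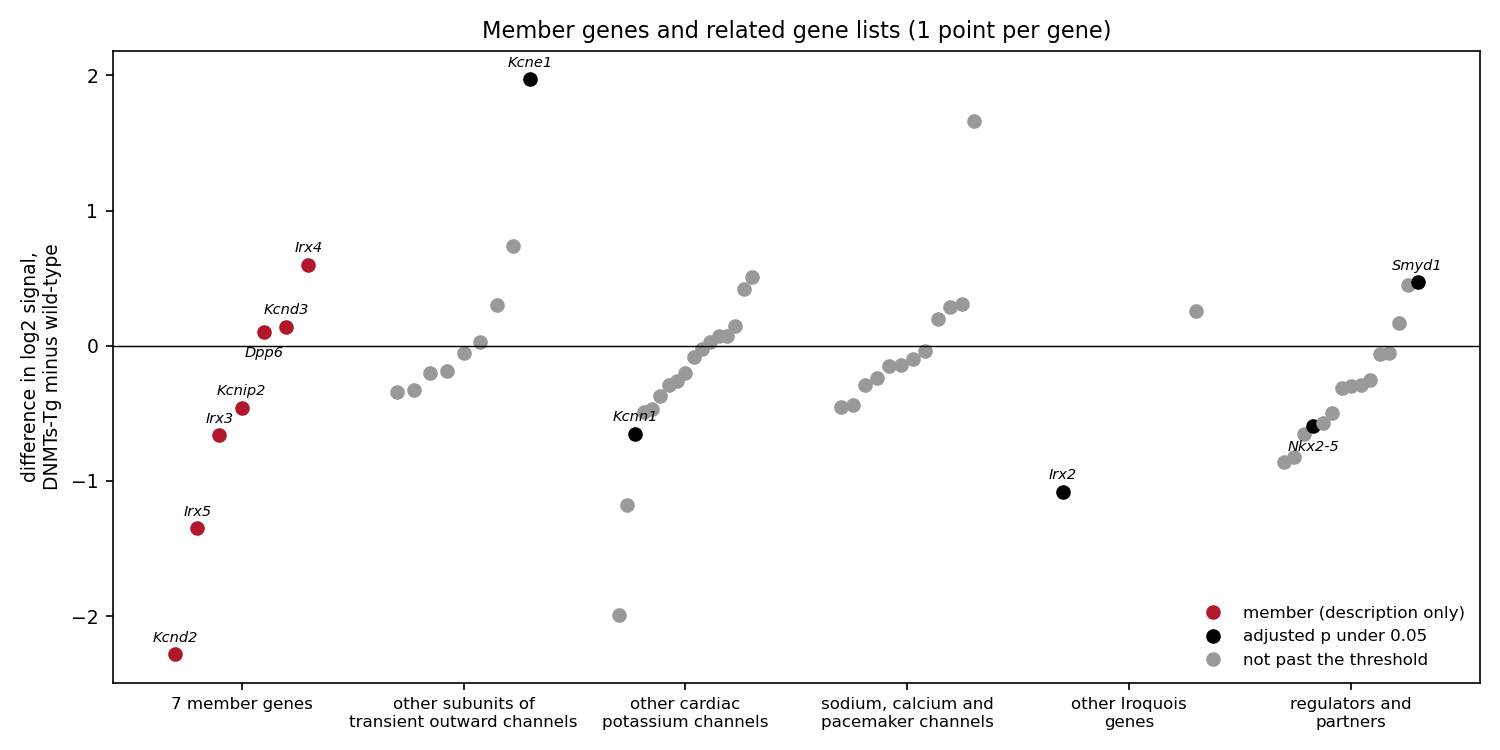
Difference in log2 signal between DNMTs-Tg and wild-type hearts, with 1 point per gene, for the 7 members (red, description only) and 5 related lists; black points passed an adjusted p of 0.05. Kcne1 at 1.97 and Irx2 at -1.08 are the largest differences past the threshold in these lists.

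DNMTs-Tg replicate 1, the lowest array for Kcnd2, Irx3 and Kcnip2, also stood apart in macrophage and fibroblast markers. Its mean over 11 macrophage markers was 1.20 above the wild-type mean (log2), against -0.23 and -0.10 in replicates 5 and 6, and its mean over 10 fibroblast markers was 1.14 above, against 0.21 and 0.13. Levels of the macrophage list were 8.15 to 9.58 in DNMTs-Tg and 8.22 to 8.60 in wild-type hearts, and the fibroblast list stood at -0.17 to 0.26 around its mean in wild-type hearts. All markers of both lists passed the filter, and 0 passed the limma threshold, with 0 macrophage and 3 fibroblast markers at an unadjusted p under 0.05. In DNMTs-Tg replicate 1 the endothelium list stood at -0.14, smooth muscle and pericyte at 0.05, epicardium at -0.03, and neuron and glia at -0.17. The atrial list stood at 1.1 and the conduction system list at 0.2 on that array. The cardiomyocyte list stood at -0.22, -0.01 and 0.01 in DNMTs-Tg replicates 1, 5 and 6. Its mean signal of 13.78 to 14.03 was close to the highest value on any array, 14.67 to 14.74. Whether differences are compressed at such signals was not tested. Among fibroblast markers, Postn, a matrix protein gene, had 12.77, 10.58 and 9.87 in DNMTs-Tg replicates 1, 5 and 6, while wild-type hearts had 9.04 to 9.40 (difference 1.84, adjusted p = 0.143). All DNMTs-Tg hearts were thus above wild-type for Postn, and it passed the threshold without DNMTs-Tg replicate 1 (0.99, adjusted p = 0.0411) and without DNMTs-Tg replicate 6 (2.44, adjusted p = 0.0465). Col1a2, a collagen gene, was also above wild-type in every DNMTs-Tg heart (difference 1.01, adjusted p = 0.132). Of the 10 fibroblast markers, 7 differed in this direction and 3 in the other. Dpt, named after its values were seen, was below wild-type in every DNMTs-Tg heart (difference -0.33, limma adjusted p = 0.192). With DNMTs-Tg replicate 1 left out, the members differed by -1.75 for Kcnd2, -1.39 for Irx5, -0.50 for Irx3 and -0.24 for Kcnip2. The remaining members were above 0 in that fit, Irx4 at 0.72, Kcnd3 at 0.24 and Dpp6 at 0.13. The part of these cell types in the differences was not tested.

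Neurons also express Kcnd2 and Dpp6. Of 16 markers of neurons and glia 8 were tested and 0 passed the threshold, with 2 at an unadjusted p under 0.05, namely Stmn2 at -0.55 (adjusted p = 0.0701) and Syp at -0.62 (adjusted p = 0.0867). Of the 8 tested, 5 were below 0 and 3 above. The list had means of 6.24 to 6.36 in DNMTs-Tg and 6.39 to 6.46 in wild-type hearts, and the neuronal genes Snap25, Th, Gap43, Tubb3, Nefl and Nefm did not pass the filter. Their part in the Kcnd2 difference was not tested. Of 8 atrial markers 0 passed, with 3 at an unadjusted p under 0.05. The atrial calcium pump regulator gene Sln had 11.25, 6.80 and 4.84 in DNMTs-Tg replicates 1, 5 and 6, while wild-type hearts had 3.56 to 4.21 (adjusted p = 0.161), while Myl7 differed by -0.07; both are named after their values were seen. The lists of ventricular cells, conduction system, endothelium, smooth muscle and epicardium also had 0 members past the threshold, with 0, 3, 0, 2 and 0 at an unadjusted p under 0.05. The smallest adjusted p in the other lists belonged to the sarcomere gene Actn2 (0.41, adjusted p = 0.0568) and the smooth muscle myosin gene Myh11 (-0.49, adjusted p = 0.09). Actn2 went against most of its list, since 8 of the 10 cardiomyocyte markers were below 0 and 2 above, with a median difference of -0.13. Actc1, Myl2, Fgf12, Myl4, Cntn2, Tbx18, Ptprc, Pdgfrb, Egfl7 and Emcn, also named by the rule, lay between -0.37 for Cntn2 and 0.73 for Ptprc.

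A measure of RNA integrity, the 3′ minus 5′ log2 signal of the Gapdh control probe sets, was 0.53 to 0.75 on DNMTs-Tg and 0.40 to 0.50 on wild-type arrays. The same measure for Actb overlapped, at 0.91 to 1.40 and 1.09 to 1.25. The part of RNA integrity in the differences was not tested.

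**Figure D5:**
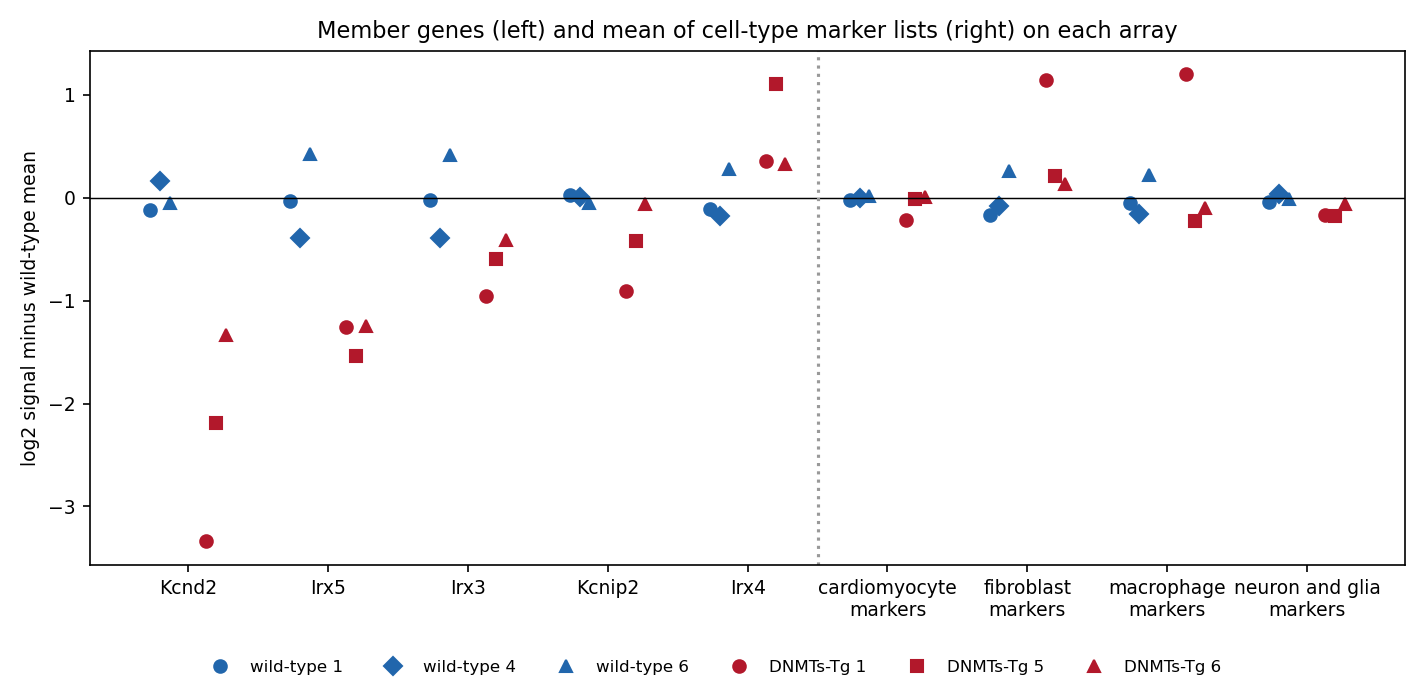
Log2 signal minus the wild-type mean on each array for 5 of the genes (left of the dotted line) and for the mean of 4 cell-type marker lists (right). DNMTs-Tg replicate 1 (red circle) is lowest for Kcnd2, at -3.33, and highest for macrophage markers, at 1.20, while Irx5 is between -1.54 and -1.25 in all 3 DNMTs-Tg hearts.

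The genes whose values over the 6 arrays were most like those of each member were found among 12507 genes outside the sex chromosomes by Pearson's r, which here reflects the genotype difference and the order of arrays together. Kcnd2 was closest to Clip4, Gpld1 and Gid4 (r from 0.9983 to 0.9984), and 485 genes had r above 0.95 with it. Kcnip2 was closest to Smdt1, Macrod1 and Etfb (r from 0.9985 to 0.9992), with 424 genes above 0.95. Irx5 was closest to Ndrg4, Rian and Gnb5 (r from 0.9914 to 0.9978), and Irx3 to Arap3, Six5 and Zfp87 (r from 0.9885 to 0.9903). Irx4 was closest to Arv1, Arvcf and Rabl3, Kcnd3 to Pmpca, Hs3st6 and Upk2, and Dpp6 to E2f7, Slc47a1 and Celsr1, with r from 0.9709 for Rabl3 to 0.9971 for Arv1. With 6 arrays such values are a description, and each pair shares its arrays.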

How the data were processed

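The authors deposited 1 log2 signal per probe set and array, per the values, which lie between 2.06 and 14.74 on all 6 arrays. Per the labels' protocols, RNA from frozen hearts was converted to cDNA and labelled with biotin. The sources used here do not name the background correction, the normalization or the software, and no detection calls were used, so a low value cannot be told from background. Probe sets were named from the platform annotation, 34958 of 45101 with 1 symbol, and 34754 of these were matched by gene identifier to RefSeq symbols (GRCm38.p6). Values were analysed as deposited, after leaving out 64 control probe sets.

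Differences were fitted with limma 3.58.1 in R 4.3.3 (2-sided, eBayes with a trend, Benjamini-Hochberg adjustment) over the 13634 genes, and again over every probe set, from which the members' SE come. Tested on simulated data with these 13634 genes, the fit recovered 74% of genes changed by 1 on the log2 scale. It recovered 93% of those changed by 2, and 5 unchanged genes were called. Whether these rates hold on the 6 arrays, where calls varied with the array left out, was not tested.

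Named were all members, up to 6 genes past the threshold from each list or otherwise the 2 with the smallest p, the genes next to Irx3, Irx4 and Irx5, and the 3 genes most like each member outside the sex chromosomes and clone names; exceptions are marked in the text. The members and lists were chosen with earlier results of these data known. The labels describe each sample as from a mouse, with age and sex, and say nothing of litters or of when samples were taken, so p-values measure the spread between these samples. The number of arrays limits the precision. Alternatives were other normalizations, filters, probe set rules, variance models, array weights, a replicate block and leaving out each array.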

Additional observations from a re-analysis of the deposited data

How the results depend on the processing

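The members' differences moved by less than the spread between replicates under the alternatives that could give them, except that Irx4 stood at 1.06 with array weights. That fit stopped before its weights converged and called 2328 genes higher and 2494 lower, with 2522 and 2950 probe sets, 1 member higher and 4 lower, 8 pathway-list genes higher and 19 lower, and 8 marker genes higher and 12 lower. With the label number as a replicate block, 1 gene was called higher and 0 lower, 2 probe sets higher and 5 lower, and 0 members and 0 pathway-list genes either way. Only the numbers 1 and 6 occur in both groups, so this fit takes the genotype difference from the arrays with those numbers alone. Their arrays' deviations from the group means correlated at -0.054 and -0.08 over genes. With so few arrays such values cannot decide whether samples of the same number share a litter or a day, which the labels do not give. Quantile normalization and the fit without a trend called 1 pathway-list gene higher, no filter 1 higher and 1 lower, and the mean of probe sets 1 higher and 5 lower, with 2 marker genes lower. The filter at the 60th percentile called 1 marker gene higher, and Dpp6 did not pass it.

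With 1 array left out, genes called ranged from 44 to 815 higher and from 79 to 789 lower, and probe sets from 54 to 1254 higher and from 113 to 1175 lower. Members called lower ranged from 0 to 3, the third being Kcnip2 without DNMTs-Tg replicate 6, pathway-list genes from 0 to 3 higher and from 0 to 4 lower, and marker genes from 0 to 3 higher and from 0 to 2 lower. The fewest calls over genes and over probe sets came without wild-type replicate 1 and the most without DNMTs-Tg replicate 6. Among named marker genes, none past the threshold, Cd14 ranged from -0.07 (without DNMTs-Tg replicate 1) to 0.79, Myl3 from -0.01 (without DNMTs-Tg replicate 6) to 0.08 and Upk1b from -0.01 (without DNMTs-Tg replicate 5) to 0.13, and Wt1 was -0.04 with array weights, where all 4 were above 0 with all arrays and equal weights. The cause of these changes was not tested.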
